A study of Homo sapiens with 6 samples.

Results

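The imprinted DLK1-DIO3 region of human chromosome 14q32 carries one of the largest groups of miRNA genes in the genome, and 48 of its miRNA names were followed here in a breast cancer cell line with and without estrogen receptor β (ERβ). Every row of the deposited miRNA table that bore 1 of those names, from either arm and any copy, was taken as a member. This gave 91 of the 2656 rows in the table, and all 48 names had at least 1 row. The members as a set were more abundant with ERβ: their summed level was 392.9 ± 15.95 CPM (counts scaled to a common library total) with exogenous ERβ and 200.5 ± 14.15 CPM in the knockout (SD, n = 3 libraries each), a ratio of 1.96.

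All 6 libraries came from KPL4, an established HER2-overexpressing breast adenocarcinoma line, grown in HAM's-F12 medium with serum, insulin and hydrocortisone. ERβ, the product of ESR2, is a hormone-dependent transcription factor. The knockout group held 3 libraries of KPL4 cells in which ERβ had been knocked out, and the exogenous ERβ group held 3 libraries of ERβ knockout KPL4 cells transfected to express ERβ, so both groups lack the endogenous receptor. No group with an empty vector was among the samples, and the labels do not say whether both groups stem from 1 clone. The labels also do not say whether the libraries of a group came from separate cultures, so each p-value reflects the spread among these libraries alone, and that spread may be technical. A small RNA table cannot show the ERβ messenger RNA, so the knockout itself could not be checked.

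Total counts ran from 10288413 to 14296900 per library, and 3 counts were worth 0.201 to 0.305 CPM. CPM here use the library total after trimmed-mean (TMM) scaling in edgeR. The knockout columns are called S1, S2 and 3, since 2 of them carry the same replicate number in their names, and the exogenous ERβ columns are called 1, 2 and 3. Knockout library S2 stood apart from the other 2 of its group: a chi-square comparison of counts, divided by its degrees of freedom, gave 314 against S1 and 342 against 3, while S1 and 3 gave 15.7 and the 3 exogenous ERβ pairs gave 12.2 to 21.2. Results are therefore also given without that library. In the text, 6 values in a row follow the order knockout S1, S2 and 3, then exogenous ERβ 1, 2 and 3.

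In the DLK1-DIO3 region the protein-coding genes DLK1, RTL1 and DIO3 are expressed from the paternal chromosome, and the long noncoding RNAs MEG3, MEG8 and MEG9 and the miRNAs from the maternal one. The miRNA hairpins lie on the same strand as MEG3 and are thought to be cut from long primary transcripts. As a group these miRNAs are known for high levels in embryo, placenta and brain, for induction by activity in neurons, and for silencing or reactivation in many tumours. A miRNA directs its protein complex to messenger RNAs mainly through its seed, bases 2 to 8 from the 5′ end.

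The mature sequences of the 12 members that were most abundant or had the largest changes are shown because the results turn on them. miR-300 is shown because it shares a seed with one of them. The sequences are from RefSeq (GRCh38.p14), written 5′ to 3′ with the seed in capitals.
hsa-miR-376a-3p: aUCAUAGAggaaaauccacgu
hsa-miR-376b-3p: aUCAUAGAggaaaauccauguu
hsa-miR-376c-3p: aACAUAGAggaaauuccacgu
hsa-miR-381-3p: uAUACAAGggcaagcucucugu
hsa-miR-300: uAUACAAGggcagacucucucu
hsa-miR-379-5p: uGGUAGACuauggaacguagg
hsa-miR-411-5p: uAGUAGACcguauagcguacg
hsa-miR-654-3p: uAUGUCUGcugaccaucaccuu
hsa-miR-409-3p: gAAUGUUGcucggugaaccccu
hsa-miR-382-5p: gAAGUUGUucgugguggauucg
hsa-miR-323a-3p: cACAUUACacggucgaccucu
hsa-miR-369-3p: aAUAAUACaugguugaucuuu
hsa-miR-889-3p: uUAAUAUCggacaaccauugu

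RefSeq gave a mature sequence for 90 of the 91 rows, from 51 hairpins. Those 90 held 79 distinct seeds, and 10 seeds occurred in 2 or more members. miR-376a-3p and miR-376b-3p share the seed UCAUAGA and differ over their first 21 bases by C19U, counted from the 5′ end with the base of miR-376a-3p first. miR-376c-3p differs from miR-376a-3p by U2A and A14U, so its seed is ACAUAGA. miR-381-3p and miR-300 share AUACAAG and differ by A13G, G14A and G21C, with the base of miR-381-3p first. miR-485-3p and miR-539-3p share UCAUACA, and miR-376b-5p and miR-376c-5p share GUGGAUA. The members of the locus therefore spread over many seeds, and no seed occurred in more than 2 of the tested members.

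The hairpins fell into 2 segments on the plus strand of chromosome 14 (GRCh38.p14). The segment nearer MEG3, called here the miR-127 segment, ran from 100869060 to 100911207 (42.1 kb) and held 9 hairpins and 17 rows, among them miR-493, miR-337, miR-665, miR-431, miR-433, miR-127, miR-432, miR-136 and miR-370. Several of its hairpins lie opposite RTL1, the retrotransposon-derived gene on the other strand that miR-127 and its neighbours can target by full pairing. The segment named after its outer members miR-379 and miR-656 began 110.9 kb further on, ran from 101022066 to 101066801 (44.7 kb), and held 41 hairpins and 73 rows. MIR770, the remaining hairpin, lies inside MEG3.

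The 2 segments differed in level by more than 100-fold in both groups. All 17 rows of the miR-127 segment together gave 12, 16, 15, 9.5, 8 and 21 counts. Against this, the miR-379/miR-656 segment gave 2179, 2247, 2102, 4346, 5634 and 6031 counts. The lowest library of the second segment thus held many times the counts of the highest library of the first.

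In CPM, the miR-127 segment summed to 1.31 ± 0.22 in the knockout and 0.92 ± 0.45 with exogenous ERβ (SD, n = 3 each), and the groups overlapped. Library by library it gave 1.09, 1.32, 1.53, 0.81, 0.53 and 1.42 CPM, so no exogenous ERβ library was above all 3 knockout libraries. Its most counted row was miR-127-3p, a miRNA known to repress RTL1 and BCL6, with 7, 4, 3, 5, 3 and 5 counts. In 9 of its 17 rows no library had a count, and none of its rows had enough counts to be tested. miR-770-5p had no count in any library.

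The miR-379/miR-656 segment summed to 198.2, 185.7, 213.7, 391.5, 376.6 and 407.6 CPM. Every exogenous ERβ library was above every knockout library. The means were 199.2 ± 14.04 and 391.9 ± 15.51 CPM, a ratio of 1.97. Among all counts of a library, the members took 0.0185% to 0.0199% in the knockout and 0.0395% to 0.0426% with exogenous ERβ. These are bulk libraries, so more cells with these miRNAs and more of the miRNAs in each cell cannot be told apart.

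**Figure D1:**
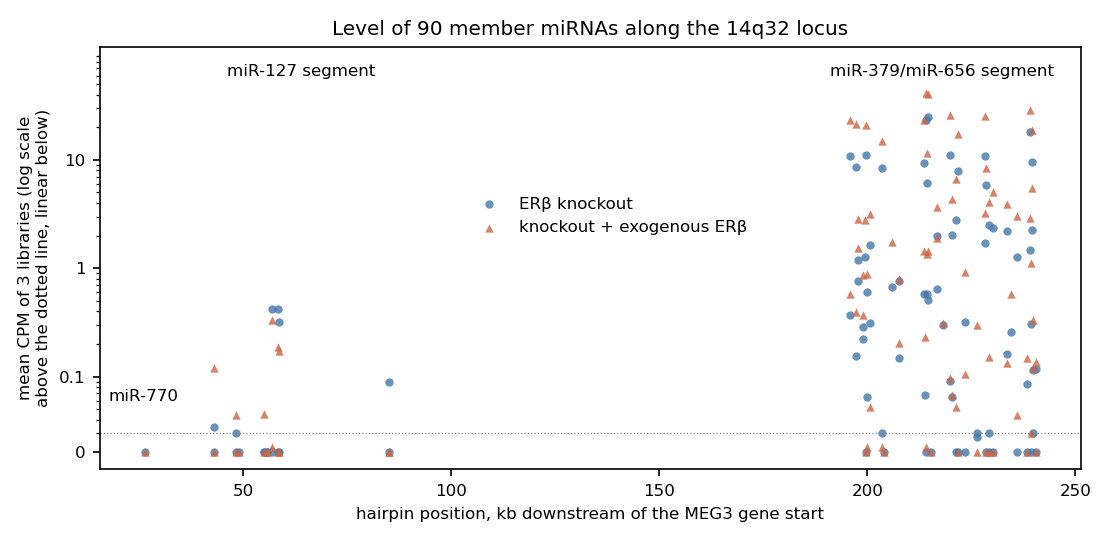
Mean CPM of each member (vertical axis, log scale above the dotted line and linear below) against the position of its hairpin in kb from the start of MEG3, for the 90 members with a RefSeq position. Circles are means of the 3 knockout libraries and triangles means of the 3 exogenous ERβ libraries. No member of the miR-127 segment reached 1 CPM, while the most abundant members of the second segment lay above 10 CPM.

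A fit across all miRNAs (edgeR's quasi-likelihood test, Benjamini-Hochberg adjustment) could test 783 rows after removal of those with low counts, among them 35 members, all in the miR-379/miR-656 segment. Of these 35, 28 were called higher with exogenous ERβ at an adjusted p under 0.05 and 0 were called lower. Over all tested miRNAs 9.83% were called higher and 13.3% lower. The log2 fold change was above 0 for 35 of 35 members, with a range of 0.10 to 1.88 and a median of 1.09, while the median over all tested miRNAs was -0.01. In 33 of the 35, every exogenous ERβ library was above every knockout library, a pattern held by 18.9% of all tested miRNAs.

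A member could pass the low-count filter through the exogenous ERβ libraries alone, and such a member had to differ. At the filter's level of 0.83 CPM, 7 of the 35 did so, namely miR-299-5p, miR-543, miR-376c-5p, miR-376b-5p, miR-376a-5p, miR-1185-5p and miR-412-5p. In 3 more, miR-299-3p, miR-377-3p and miR-495-3p, only 1 or 2 knockout libraries reached the level, so these also needed exogenous ERβ libraries to pass. Of these 3, miR-377-3p was called higher. In the 25 members that reached the level in all 3 knockout libraries, 21 were called higher and the median log2 fold change was 0.98. With no filter, 72 members had a count in some library, and 35 of the 72 were called higher and 0 lower. That fit called 203 of all 1864 rows in either direction. Without knockout library S2, 30 of 37 tested members were called higher, and 279 of all 800 tested miRNAs were called in either direction. The log2 ratio of the summed CPM was then 0.92, against 0.97 with that library.

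**Figure D2:**
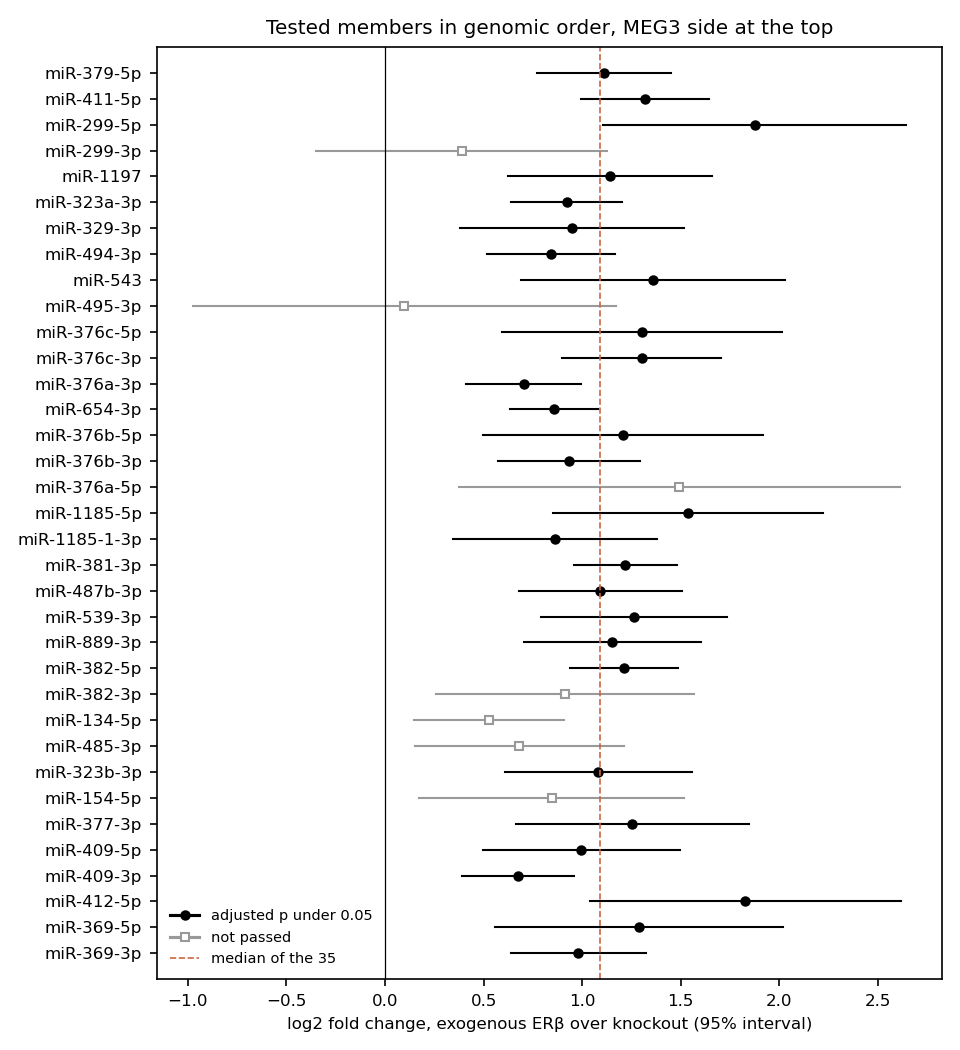
Log2 fold change of exogenous ERβ over knockout with its 95% interval (horizontal axis) for the 35 tested members in genomic order. Filled circles passed an adjusted p of 0.05 and open squares did not. All points lie above 0, and the dashed line marks the median of 1.09.

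miR-376a-3p, cut from 2 hairpins of the miR-376 family, was among the 2 most abundant members and ranked 257th of the 783 tested miRNAs by mean level. Its levels were 26.1, 22.1, 26.7, 43.4, 34.6 and 43.7 CPM. The groups did not overlap, with the lowest exogenous ERβ value in library 2. Its log2 fold change was 0.70 ± 0.13 (SE; edgeR adjusted p = 0.00395), one of the smaller ones among the called members.

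miR-376c-3p, from a hairpin in the same family, stood at 11.8, 6.86, 9.46, 23.8, 23.1 and 22.3 CPM. The knockout libraries varied, with S2 lowest, and the exogenous ERβ libraries lay close together well above them. This gave a log2 fold change of 1.30 ± 0.18 (edgeR adjusted p = 8.14e-04). For miR-376b-3p the values were 5.36, 6.03, 6.92, 13.2, 10.3 and 11.5 CPM, again without overlap, and the log2 fold change was 0.93 ± 0.16 (edgeR adjusted p = 0.00271).

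The deposited values of these near-identical miRNAs are not whole, and how reads with several matches were counted is not stated, so the level of each one alone is uncertain. Their sum would not depend on a split of reads within the family. The 3 miRNAs summed to 43.3, 35, 43, 80.5, 68.1 and 77.5 CPM, a ratio of 1.86. Their primary transcripts are known targets of adenosine-to-inosine editing in other tissues, and edited reads were not analysed here.

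miR-654-3p lies between 2 of the miR-376 hairpins. Its levels were 24.0, 22.4, 22.9, 39.1, 42.8 and 43.5 CPM, with the knockout libraries close together. All 3 exogenous ERβ libraries were far above the knockout ones. The log2 fold change was 0.86 ± 0.10 (edgeR adjusted p = 2.74e-04).

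A pair of neighbouring hairpins at the MEG3 side of the segment, MIR379 (101022066 to 101022132) and MIR411 (101023325 to 101023420), both gave mainly their 5p arm. miR-379-5p measured 9.73, 10.0, 12.5, 22.3, 20.5 and 26.4 CPM. miR-411-5p measured 9.91, 7.11, 8.95, 21.9, 20.5 and 22.2 CPM. Neither overlapped between groups. The log2 fold changes were 1.11 ± 0.15 (edgeR adjusted p = 7.68e-04) for miR-379-5p and 1.32 ± 0.14 (edgeR adjusted p = 2.17e-04) for miR-411-5p, the largest among members averaging at least 5 CPM. miR-323a-3p, from a hairpin a few kb away, had 9.73, 11.9, 11.8, 21.1, 20.3 and 21.9 CPM and a log2 fold change of 0.92 ± 0.13 (edgeR adjusted p = 7.49e-04).

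MIR381 (101045927 to 101045989) and MIR889 (101047901 to 101047979) lie inside MIR381HG, a noncoding host gene of the cluster. miR-381-3p stood at 10.7, 10.6, 12, 26, 24.5 and 27 CPM. Its groups were far apart and it had the lowest adjusted p of the members averaging at least 5 CPM (log2 fold change 1.22 ± 0.12, edgeR adjusted p = 8.49e-05). miR-889-3p stood at 7.64, 5.62, 10.3, 15.9, 18.5 and 17.5 CPM. The spread among its knockout libraries was wider, but the groups did not overlap (log2 fold change 1.15 ± 0.20, edgeR adjusted p = 0.00274). miR-300, which shares its seed with miR-381-3p, had no count in any library, so the rise of that seed came from miR-381-3p.

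miR-382-5p had 10.4, 10.2, 12.3, 25.1, 24.4 and 26.5 CPM, close to the values of miR-381-3p in every library. Its log2 fold change was 1.21 ± 0.12 (edgeR adjusted p = 1.27e-04). At the far end of the segment, miR-409-3p stood at 15.7, 20.6, 17.8, 26.5, 29.8 and 30.0 CPM. This was the smallest change among the called members, at 0.67 ± 0.13 (edgeR adjusted p = 0.00445). miR-369-3p, known for binding the AU-rich element of TNF messenger RNA, had 8.0, 9.01, 11.5, 17.5, 19.0 and 19.5 CPM and a log2 fold change of 0.98 ± 0.15 (edgeR adjusted p = 0.00161).

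**Figure D3:**
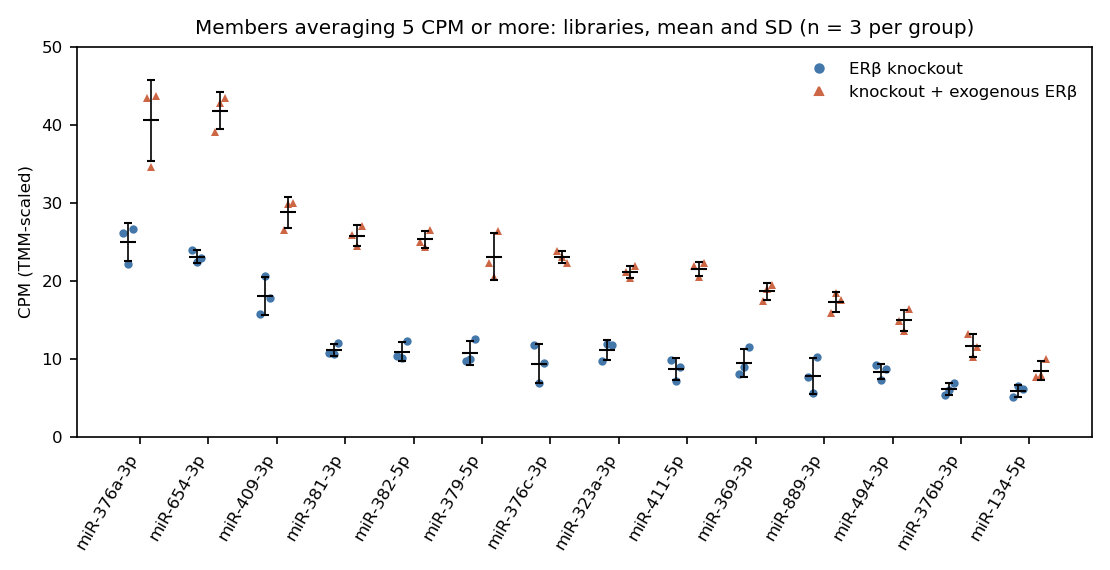
CPM in each library (points), with group mean and SD (bars, n = 3), for the 14 members averaging at least 5 CPM, ordered by mean level. In each of the 14, all 3 exogenous ERβ libraries lie above all 3 knockout libraries.

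Of the 14 members averaging at least 5 CPM, 13 were called higher, with adjusted p-values of 8.49e-05 to 0.00445 in edgeR. The exception was miR-134-5p, known from neurons as a repressor of LIMK1 in dendrites. Its values of 5.09, 6.53, 6.1, 7.66, 7.89 and 9.94 CPM did not overlap between groups, but the log2 fold change of 0.53 ± 0.17 had an adjusted p of 0.0505 in edgeR. The 21 tested members below 5 CPM held 15 of the calls, and the 7 that passed the filter only through the exogenous ERβ libraries are among them.

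The highest log2 fold changes were in rare members. miR-299-5p stood at 0.82, 0.66, 0.81, 3.96, 2.01 and 2.64 CPM, with every exogenous ERβ value above the knockout ones, and its log2 fold change was 1.88 ± 0.34 (edgeR adjusted p = 0.00368). miR-412-5p stood at 0.36, 0.25, 0.31, 1.17, 1.07 and 1.08 CPM and had 1.83 ± 0.35 (edgeR adjusted p = 0.00464). Both passed the low-count filter only through the exogenous ERβ libraries, and in the knockout their counts were few.

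The other 14 called members had log2 fold changes between 0.84 and 1.54. The most abundant of them, miR-494-3p, stood at 9.18, 7.27, 8.65, 14.9, 13.6 and 16.4 CPM, without overlap (0.84 ± 0.14, edgeR adjusted p = 0.00271). miR-487b-3p and miR-539-3p come from hairpins inside MIR381HG, as do miR-381-3p and miR-889-3p. miR-487b-3p averaged 2.04 CPM in the knockout and 4.37 CPM with exogenous ERβ, a log2 fold change of 1.09 ± 0.18 (edgeR adjusted p = 0.00247). miR-539-3p averaged 2.77 and 6.65 CPM, a log2 fold change of 1.26 ± 0.21 (edgeR adjusted p = 0.00241). All 4 tested members of that host gene thus rose by similar amounts, from 1.09 to 1.26 on the log2 scale.

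The partners of GUGGAUA, miR-376b-5p and miR-376c-5p, are near-identical, differing by C1G over their shared length with the base of miR-376b-5p first. Both passed the low-count filter only through the exogenous ERβ libraries, with log2 fold changes of 1.21 ± 0.32 and 1.30 ± 0.32 (edgeR adjusted p = 0.0228 and 0.0159). Their deposited values are not whole, so the level of each alone is uncertain and they may not be 2 separate results. They summed to 1.45, 0.992, 1.02, 2.52, 2.54 and 3.25 CPM, a ratio of 2.4. In the 14 alternatives that tested them, miR-376b-5p kept its call in 8 and miR-376c-5p in 10, and DESeq2 called neither. miR-323a-3p and miR-323b-3p differ by A2C and U5A, so they have different seeds, and both rose (0.92 and 1.08 ± 0.21 for miR-323b-3p, edgeR adjusted p = 0.00525). The deposited values of this pair are not all whole either, and the fractions occur in the same libraries for both. The level of each alone is therefore uncertain too. Of the partners of UCAUACA, miR-539-3p rose, and miR-485-3p did not pass the test.

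Besides miR-134-5p, 6 tested members did not pass the test, all with means under 5 CPM. 4 of them had groups that did not overlap. miR-382-3p, the lesser arm of its hairpin, had 2.36, 1.82, 0.92, 3.06, 3.14 and 3.52 CPM (log2 fold change 0.91 ± 0.29, edgeR adjusted p = 0.050018). miR-485-3p had 1.82, 3.39, 2.34, 3.78, 4.21 and 4.19 CPM (0.68 ± 0.24, edgeR adjusted p = 0.0678). Only miR-382-3p sat just short of the threshold. In the 14 alternatives that tested each, miR-382-3p was called in 8 and miR-485-3p in 4.

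miR-154-5p had 1.73, 1.49, 3.46, 3.51, 4.41 and 3.79 CPM (0.84 ± 0.30, edgeR adjusted p = 0.0718), with knockout library 3 almost level with the lowest exogenous ERβ library. miR-376a-5p had 0.46, 0.25, 0.81, 2.16, 1.27 and 0.88 CPM (1.49 ± 0.49, edgeR adjusted p = 0.0586). For miR-154-5p the spread was wide in the knockout (SD 1.08) and smaller with exogenous ERβ (SD 0.46). For miR-376a-5p it was wide in both groups for such low levels (SD 0.29 and 0.66).

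In the other 2 members the groups overlapped. miR-299-3p had 1.0, 0.83, 1.73, 1.71, 1.27 and 1.62 CPM (0.39 ± 0.33, edgeR adjusted p = 0.447). miR-495-3p, known as a miRNA of the cluster in neurons, had 0.55, 0.41, 1.32, 0.99, 0.53 and 0.88 CPM (0.10 ± 0.48, edgeR adjusted p = 0.905). For miR-495-3p the interval ran from -0.98 to 1.17, so a change as large as the members' median was not excluded at this depth.

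The size of the change was not ordered along the segment. In 5 of the 35 tested members the 95% interval left out the median of 1.09, 4 of them lying below it and 1 above. Spearman's rho between log2 fold change and genomic position was -0.06 over the 35 members, and between log2 fold change and mean CPM -0.29. These are descriptions: the members share libraries, and low members passed the filter more easily when they were high with ERβ.

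Of the 56 members not tested, 19 had no count in any library and 37 had few. The largest total was in miR-758-3p, with 7, 3, 9, 8, 9 and 20 counts. miR-655-3p followed with 4, 1, 5, 6, 22 and 11 counts, and miR-380-5p with 2, 1, 4, 13, 13 and 8. The counts of miR-758-3p overlapped between the groups, and those of the other two did not. miR-410-3p, after which the cluster is often named together with miR-379, had only 2, 2, 0, 5, 3 and 5 counts. The untested members together summed to 5.21 ± 0.72 CPM in the knockout and 8.12 ± 0.82 CPM with exogenous ERβ.

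A hairpin yields a 5p and a 3p product, and their ratio does not depend on how libraries are scaled. Both arms were tested for 6 single-copy hairpins. For MIR299 the log2 ratio of 5p to 3p counts was -0.28, -0.31, -1.04, 1.19, 0.65 and 0.69, from counts of 9 against 11, 8 against 10 and 8 against 17 in the knockout. miR-299-5p passed the low-count filter only through the exogenous ERβ libraries, so this hairpin entered the comparison because its 5p arm was high there. The means were -0.54 ± 0.43 and 0.84 ± 0.30 (SD, n = 3 each), a difference of 1.38. An exact two-sided permutation test gave p = 0.1, the smallest p that 3 against 3 libraries allow, and 0.6 after adjustment over the 6 hairpins.

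The groups overlapped for the other 5 hairpins. Their differences were -0.08 for MIR376C, 0.23 for MIR376B, 0.20 for MIR382, 0.30 for MIR409 and 0.42 for MIR369, with exact permutation p-values of 0.3 to 0.7 before adjustment and 0.7 after it. For MIR376C and MIR376B, the 5p arm passed the low-count filter only through the exogenous ERβ libraries. The counts of both their arms are not whole, so these ratios may also depend on how shared reads were counted. MIR382 gave mainly its 5p arm, and MIR376C, MIR376B, MIR409 and MIR369 mainly their 3p arm, in all 6 libraries. The preferred arm of these 5 was thus the same in both groups.

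**Figure D4:**
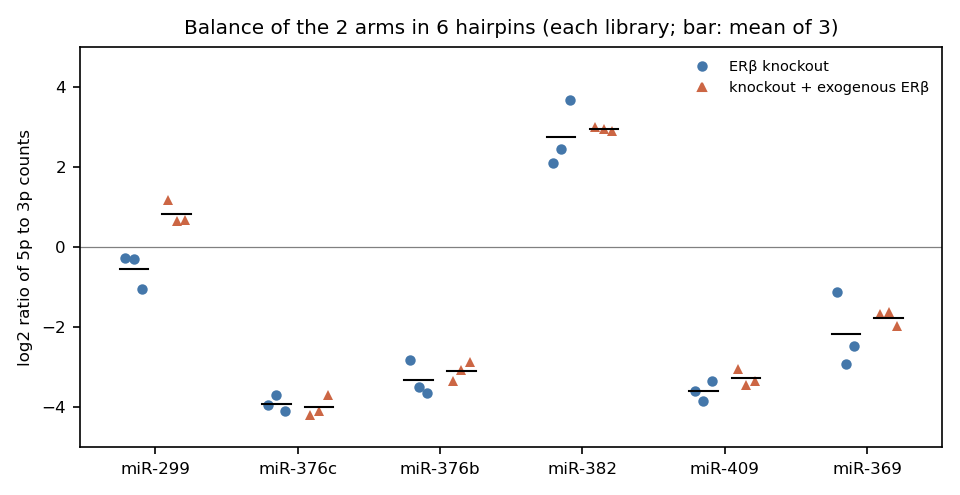
Log2 ratio of 5p to 3p counts in each library (points) and group mean of 3 libraries (bars) for the 6 hairpins with both arms tested. miR-299 is the 1 hairpin whose groups do not overlap, with means of -0.54 in the knockout and 0.84 with exogenous ERβ.

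The make-up of the miR-379/miR-656 segment moved less than its total. The 8 most abundant members held 58.0% to 61.7% of the segment's counts in every library. For 24 of the 35 tested members the share of the segment overlapped between groups, for 7 it was larger in every exogenous ERβ library, and for 4 smaller. Of those 7, miR-299-5p, miR-543, miR-1185-5p and miR-412-5p passed the low-count filter only through the exogenous ERβ libraries. That filter favoured a rise in their CPM, but it did not by itself set their share. The shares of miR-376a-5p, miR-376b-5p and miR-376c-5p, which passed in the same way, overlapped between groups. miR-381-3p rose from 5.58% ± 0.14 to 6.59% ± 0.08 of the segment and miR-411-5p from 4.34% ± 0.60 to 5.49% ± 0.09 (SD, n = 3 each). miR-376a-3p took 12.5% ± 0.62 in the knockout and 10.3% ± 1.01 with exogenous ERβ, and miR-409-3p 9.12% ± 1.71 and 7.35% ± 0.58. These last are among the 3 most abundant members, and their share was smaller while their level rose. These shares were not tested.

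The mature sequences of the tested members had a median GC content of 45.5% (range 23.8% to 59.1%), against 47.6% in the other tested miRNAs with a sequence. The first base was A in 42.9% and U in 34.3% of them, against 25.8% and 42.7% of the others. The first base matters for loading into Argonaute proteins and for ligation in library preparation.

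The tested members, all in the miR-379/miR-656 segment, had log2 fold changes above 0. For the summed miR-127 segment, which lies nearer MEG3, the groups overlapped. The start of MEG3, the noncoding gene at the head of the maternal transcripts, is shown, and its part in the change was not tested. The window is chr14:100825858-100826157 on the plus strand (RefSeq, GRCh38.p14), from 250 bases before the annotated start to 50 after, 1 of 3 windows annotated for MEG3. The capitals mark a cAMP response element (TGACGTCA), the binding motif of CREB family factors, which begins 50 bases before the start.
MEG3: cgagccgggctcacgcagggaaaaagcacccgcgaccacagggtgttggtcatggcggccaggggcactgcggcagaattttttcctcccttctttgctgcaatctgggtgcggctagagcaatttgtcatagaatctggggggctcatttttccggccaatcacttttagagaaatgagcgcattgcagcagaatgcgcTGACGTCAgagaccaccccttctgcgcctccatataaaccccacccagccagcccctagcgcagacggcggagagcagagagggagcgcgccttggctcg

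The cAMP response element was found in 1.85% of 35116 promoter windows of the same length, searched on both strands. The estrogen receptor half-site AGGTCA, found in 13.8% of the windows, and the palindromic element GGTCANNNTGACC, found in 0.057%, were not in the MEG3 window on either strand. These are matches of letters in 1 window, with no measurement of binding, and each copy of the palindrome that holds AGGTCA is also counted for the half-site.

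Outside the set, 17 miRNAs of chromosome 14 were tested. 0 of the 17 were called higher and 4 lower, beside 9.83% and 13.3% of all tested miRNAs, with log2 fold changes from -0.72 to 0.92 and a median of -0.25. The difference between the members and these neighbours was not tested. The calls of lower neighbours depend on the scaling and on single libraries: with library totals alone 0 were lower and 1 was higher, and without exogenous ERβ library 1 or 3 there were 0 lower, without library 2 there was 1, and without knockout library S2 there were 4. On the MEG3 side, miR-342-3p, a miRNA of the EVL gene 0.72 Mb upstream, stood at 723 ± 109 CPM in the knockout and 515 ± 13 CPM with exogenous ERβ (log2 fold change -0.49 ± 0.11, edgeR adjusted p = 0.00977). miR-345-5p, 0.52 Mb upstream, had a log2 fold change of 0.13 ± 0.12 and did not pass (edgeR adjusted p = 0.486).

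On the DIO3 side, miR-1247 lies at 0.73 Mb downstream of the MEG3 start, next to DIO3 at the far end of the imprinted region. miR-1247-3p had 3.64, 4.79, 4.98, 1.89, 3.68 and 2.43 CPM (log2 fold change -0.72 ± 0.26, edgeR adjusted p = 0.0774), and miR-1247-5p had -0.27 ± 0.24 (edgeR adjusted p = 0.468). Neither passed, and neither log2 fold change was above 0. Within the cluster but outside the set, miR-544a had 4, 3, 4, 14, 3 and 4 counts and miR-2392 had 0, 0, 1, 0, 0 and 0, too few to be tested.

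**Figure D5:**
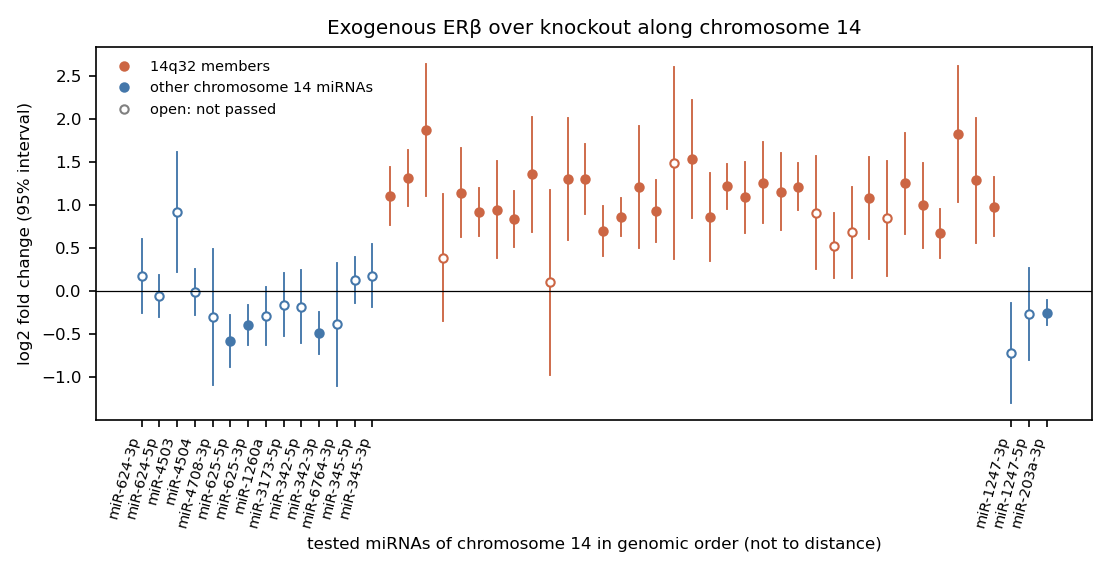
Log2 fold change of exogenous ERβ over knockout with its 95% interval (vertical axis) for the 17 other tested miRNAs and the 35 tested members of chromosome 14 in genomic order, not to distance. Filled points passed an adjusted p of 0.05. The members lie above 0, while the other miRNAs lie between -0.72 and 0.92, with a median of -0.25.

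Marker miRNAs of other cell types were read beside the members, since the locus is active in stromal, neural, placental and stem cells. Of 12 rows of mesenchymal and endothelial miRNAs, 7 were tested. Of these, 0 were called higher and 5 lower, beside 9.83% and 13.3% of all tested miRNAs, and the median log2 fold change was -0.69. Their summed level was 22300 to 24000 CPM in the knockout and 18600 to 20500 CPM with exogenous ERβ. Most of that summed level was miR-126-3p, at 16900, 16500, 17000, 13100, 13800 and 14200 CPM (log2 fold change -0.295). miR-199a-3p and miR-199b-3p, both called lower, had log2 fold changes of -0.691 and -0.688. The levels of these 2 rows kept nearly the same ratio in every library. They may therefore not be 2 separate results among the 5 called lower. Whether these 2 rows share reads was not tested. In this list miR-145-5p stood at 0.55, 0.41, 0.51, 0.09, 0.27 and 0 CPM, and miR-214-5p had no count. Of 11 neural rows 2 had no count, 6 were tested and 0 were called, with sums of 4680 to 5790 and 4850 to 4960 CPM. Most of these sums was miR-128-3p alone, at 4670, 5620, 4470, 4740, 4640 and 4750 CPM. miR-124-3p, the defining neuronal miRNA, had a count in 1 library. Of 26 pluripotent and placental rows 21 had no count, and the sums were 0.091 to 0.248 CPM in the knockout and 0.203 to 0.535 CPM with exogenous ERβ. None of the tested rows of these 3 lists was called higher, and the last list, with no row tested, stayed below 1 CPM in each library.

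Of 9 blood rows 2 had no count, 4 were tested and 0 were called, with sums of 18.9 to 24.1 and 20.2 to 22.9 CPM. The muscle list, 6 rows with 1 at 0, summed to 3.06 to 4.37 CPM in the knockout and 0.473 to 1.34 CPM with exogenous ERβ, its 1 tested row miR-1-3p being called lower. Of the 2 liver rows 1 was tested and not called, with sums of 17.4 to 20.5 and 20.1 to 28.7 CPM. Epithelial markers were high in every library, at 86900 to 103000 CPM in the knockout and 87200 to 91600 CPM with exogenous ERβ, the state the labelled line should show. Of the 11 epithelial rows 2 were called higher, both arms of miR-205, and 2 lower, miR-200c-3p and miR-141-3p. Over all tested miRNAs 9.83% were called higher and 13.3% lower. The epithelial calls depend on the scaling and on single libraries: 0 were lower with upper quartile factors, with library totals and without any 1 of the exogenous ERβ libraries, and 4 were lower without knockout library S2. The part of these lists in the change of the members was not tested.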

How the data were processed

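Small RNA libraries (QIAseq miRNA kit, per the labels) of 6 KPL4 samples were compared. The deposited values are expected counts per mature miRNA, which are not all whole. Per the submitters' processing notes, FastQC, Trim Galore and GRCh38 were used. The aligner, the counter, the miRNA release, the rule for reads with several matches and the use of molecular identifiers are not stated in any source read here.

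Counts were rounded to whole numbers. Rows were filtered with filterByExpr (minimum count 10, minimum total 15), scaled by TMM and tested with the quasi-likelihood test of edgeR 4.0.16 in R 4.3.3, adjusted over 783 rows, at a threshold of 0.05, and checked on simulated data. Each SE was obtained by dividing the log2 fold change by the square root of its F statistic. Arm ratios used an offset of 0.5 counts. Alternatives covered scaling, filters, DESeq2 1.42.0, limma-voom (limma 3.58.1), a replicate block and each library left out. Figures used matplotlib 3.10.9.

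Values in every library are given for the 8 most abundant tested members, the 8 with the largest changes among those averaging at least 5 CPM, and tested members that were not called. miR-299-5p, miR-412-5p, miR-494-3p and the other called members described by name were added after their values were seen. The members, lists and tests were chosen with earlier results of these data known. Marker lists covered epithelial, mesenchymal and endothelial, neural, muscle, blood, liver, and pluripotent and placental miRNAs.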

Additional observations from a re-analysis of the deposited data

How the results depend on the processing

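The members' direction was the same in all alternatives for their median and their sum, and 0 members were called lower in each of them. Upper quartile factors gave a median log2 fold change of 1.20 and a log2 ratio of the sums of 1.08, and library totals gave 1.25 and 1.13, against 1.09 and 0.97; these factors also moved the median of all tested miRNAs from -0.01 to 0.10 and 0.14. With a filter of 10 CPM in 3 libraries 13 of 13 tested members were called higher, since fewer were tested. That filter also gave calls in either direction to a larger share of all tested miRNAs than the fit of 783 rows did. With each library left out in turn, 24 to 30 members were called higher, the median was 1.00 to 1.18 and the log2 ratio of the sums 0.92 to 1.03. The fits with a library left out called 111 to 279 of all tested miRNAs in either direction. DESeq2 called 24 members, limma-voom 30, TMM without the members 30 and DESeq2 size factors 29. In the same order, these called 168, 193, 184 and 183 of all 783 tested miRNAs in either direction. Limited to members from 1 hairpin, 25 of 32 were called, and to members with whole values 20 of 27.

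Of the 28 called members, 19 were called in every alternative that tested them. A replicate block on the numbers in the column names called 19 members higher with a median of 1.13, and 88 miRNAs in all against 181. The numbers are shared names only, since 2 knockout columns carry number 1, so they do not pair the samples. Under the replicate block alone miR-1197, miR-377-3p, miR-409-5p and miR-409-3p lost the call (miR-409-3p adjusted p = 0.0633 in edgeR), and 5 others lost it under another alternative too. Leaving out libraries moved miR-495-3p from -0.216 to 0.714, the arm difference of MIR376C from -0.23 to 0.0258 and that of MIR382 from -0.114 to 0.669, so no direction holds for these 3; the cause was not tested. The arm difference of MIR369 ranged from 0.0424 to 0.937, that of MIR376B from 0.0641 to 0.48 and that of MIR409 from 0.176 to 0.43. Depth limits the members under 1 CPM, among them all of the miR-127 segment.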
